A study of Homo sapiens with 18 samples.

Results

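Collagens are matrix proteins whose chains wind in trimers into a triple helix. Fibrillar chains build the cables of connective tissue, type IV chains build the sheet-like network of basement membranes, and type VI chains build beaded filaments that tie cells to the matrix around them. FACIT chains (fibril-associated collagens with interrupted triple helices) coat fibrils, and the multiplexins COL15A1 and COL18A1 carry sugar chains in basement membrane zones, COL18A1 being the precursor of endostatin. Carcinoma cells commonly make basement membrane collagens, whereas activated hepatic stellate cells are the main source of fibrillar collagen in a scarred liver.

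The collagen chains were taken as every gene whose symbol is COL, a number, A and a number, without antisense genes. The rule gave 42 chains among 35579 distinct gene identifiers in 3 deposited tables of poly(A) RNA sequencing. Of these, 22 were listed for SW480-LM3 and SW480-P, among 15543 genes, 41 for LX-2, among 31585, and 42 for the LV5 pair, among 32555, and 22 chains were listed for all 3. By class there were 11 fibrillar, 9 network, 4 beaded filament, 9 FACIT and 2 multiplexin chains, with 4 transmembrane chains, the anchoring fibril chain COL7A1, and COL26A1 and COL28A1 outside these classes.

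All 18 libraries came from 2 human cell lines, SW480 (colon carcinoma) and LX-2 (an immortalized hepatic stellate line), in 6 groups of 3. SW480-LM3 cells were recovered after 3 rounds of selection for metastasis from SW480 cells put into the spleen, and SW480-P cells are their parental line. EV-XP-NID1-LX-2 cells were LX-2 cells kept for 48 h with vesicles holding the basement membrane linker nidogen 1 (NID1), and EV-XP-LX-2 cells were their control, for which no agent or time is spelled out. LV5-NID1 cells were SW480 cells that overexpressed NID1 and received GW4869, an inhibitor of neutral sphingomyelinase used to block vesicle release, for 72 h, and LV5 cells were their control. Whether LV5 cells also received GW4869 is not stated, so overexpression and inhibitor cannot be told apart in this pair. Nor is it stated whether a line is 1 clone or whether replicates were separate cultures, so p-values here reflect only library-to-library spread, possibly technical.

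NID1 had 44.7, 49.1 and 46.9 units of normalized signal in SW480-LM3, against 0.57, 0.582 and 0.352 in SW480-P. It had 348, 352 and 379 TPM (a length-normalized share of transcripts) in LV5-NID1 cells and 0, 0.04 and 0.02 TPM in LV5 cells. In LX-2 cells NID1 mRNA stood at 21.7, 18.02 and 22.6 TPM with NID1 vesicles, against 25.1, 25.1 and 26.0 TPM in EV-XP-LX-2. The recovered depth of the SW480-LM3 table was 15531517 to 16586016 reads per SW480-LM3 library and 15504205 to 18965163 per SW480-P library, and no depth could be had for TPM. Among the libraries, LV5-NID1 replicate 3 stood apart, being low for GC-rich transcripts. Calls of chains and partner genes and the summed collagen levels are given with and without it, but not every single mean.

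Marker lists gave a mixed check of the labelled cells. The intermediate filament gene VIM, of the stellate or mesenchymal list, averaged 1341 TPM in EV-XP-NID1-LX-2 and 1887 TPM in EV-XP-LX-2, but also 645 TPM in LV5-NID1 and 590 TPM in LV5, and 662 signal units in SW480-LM3 and 556 in SW480-P, so it did not set the stellate line apart. THY1, a surface protein of mesenchymal cells, averaged 46.6 TPM in EV-XP-NID1-LX-2 and 50.3 TPM in EV-XP-LX-2, against at most 0.17 TPM on average in LV5-NID1 and LV5, while LRAT, which stores vitamin A in quiescent stellate cells, averaged at most 0.01 TPM in both LX-2 groups. Of the colon epithelium list, LX-2 cells held the keratins KRT18 (185 TPM in EV-XP-NID1-LX-2 and 199 TPM in EV-XP-LX-2) and KRT8 (35.4 and 54.8 TPM), with the other 6 listed members at or under 0.26 TPM in every library. KRT8 averaged 7410 signal units in SW480-LM3 and 1850 in SW480-P, and the adhesion gene CDH1 148 and 1.67. SW480-P also held KRT18 (1585 signal units), EPCAM (95.6), KRT19 (88.1), CDX2 (16.4) and VIL1 (10.1), with CDH17 at 0. The LV5 pair held KRT18 (546 TPM in LV5-NID1 and 861 TPM in LV5), KRT8 (411 and 780 TPM) and EPCAM (9.05 and 5.03 TPM), but the other 7 members, CDX2, VIL1 and CDH17 among them, averaged at most 0.403 TPM in LV5-NID1 and 2.92 TPM in LV5. The marker counts that follow stand beside 43.9% of all tested genes higher and 43.9% lower in SW480-LM3, 17.8% and 24.6% in EV-XP-NID1-LX-2, and 7.27% and 9.32% in LV5-NID1. Of the 10 colon epithelium markers, 7 rose and none fell among 8 tested in SW480-LM3 against SW480-P, with summed signals of 13192 to 13906 against 3522 to 3790. In LV5-NID1 against LV5, 1 rose and 3 fell among 4 tested, with sums of 927 to 988 against 1633 to 1671 TPM. Of the 8 stellate or mesenchymal markers, 2 fell among 6 tested in EV-XP-NID1-LX-2, with sums of 1536 to 1816 against 2165 to 2326 TPM in EV-XP-LX-2. Of 5 endothelium markers, 1 was tested and fell in each comparison: ESAM averaged 0.206 signal units in SW480-LM3 and 32.2 in SW480-P, and 40.0 TPM in LV5-NID1 and 62.2 TPM in LV5, while in LX-2 cells ROBO4 stood at 23.6 to 28.9 TPM with NID1 vesicles and 35.6 to 36.7 TPM in EV-XP-LX-2. Of 5 leukocyte markers, 1 rose and 1 fell of 2 tested in SW480-LM3, 1 fell of 2 in EV-XP-NID1-LX-2 and 1 fell of 1 in LV5-NID1, with the lysosomal gene CD68, which other cells also express, at 16.9 against 20.8 signal units, 18.6 against 43.7 TPM and 1.35 against 3.64 TPM. Of 5 hepatocyte markers, SERPINA1 alone was tested: it rose in SW480-LM3 (95.9 against 51.5 signal units), fell in EV-XP-NID1-LX-2 (13.3 against 21.0 TPM) and averaged 0.247 against 1.15 TPM in LV5-NID1 and LV5, untested there. Of the stellate or mesenchymal list, 2 rose of 4 tested in SW480-LM3 and 1 fell of 4 in LV5-NID1 (TAGLN, not called without LV5-NID1 replicate 3, when PDGFRB was called lower), and of the colon epithelium list 1 fell of 2 in EV-XP-NID1-LX-2. The part of these marker shifts in the collagen results was not tested.

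**Figure D1:**
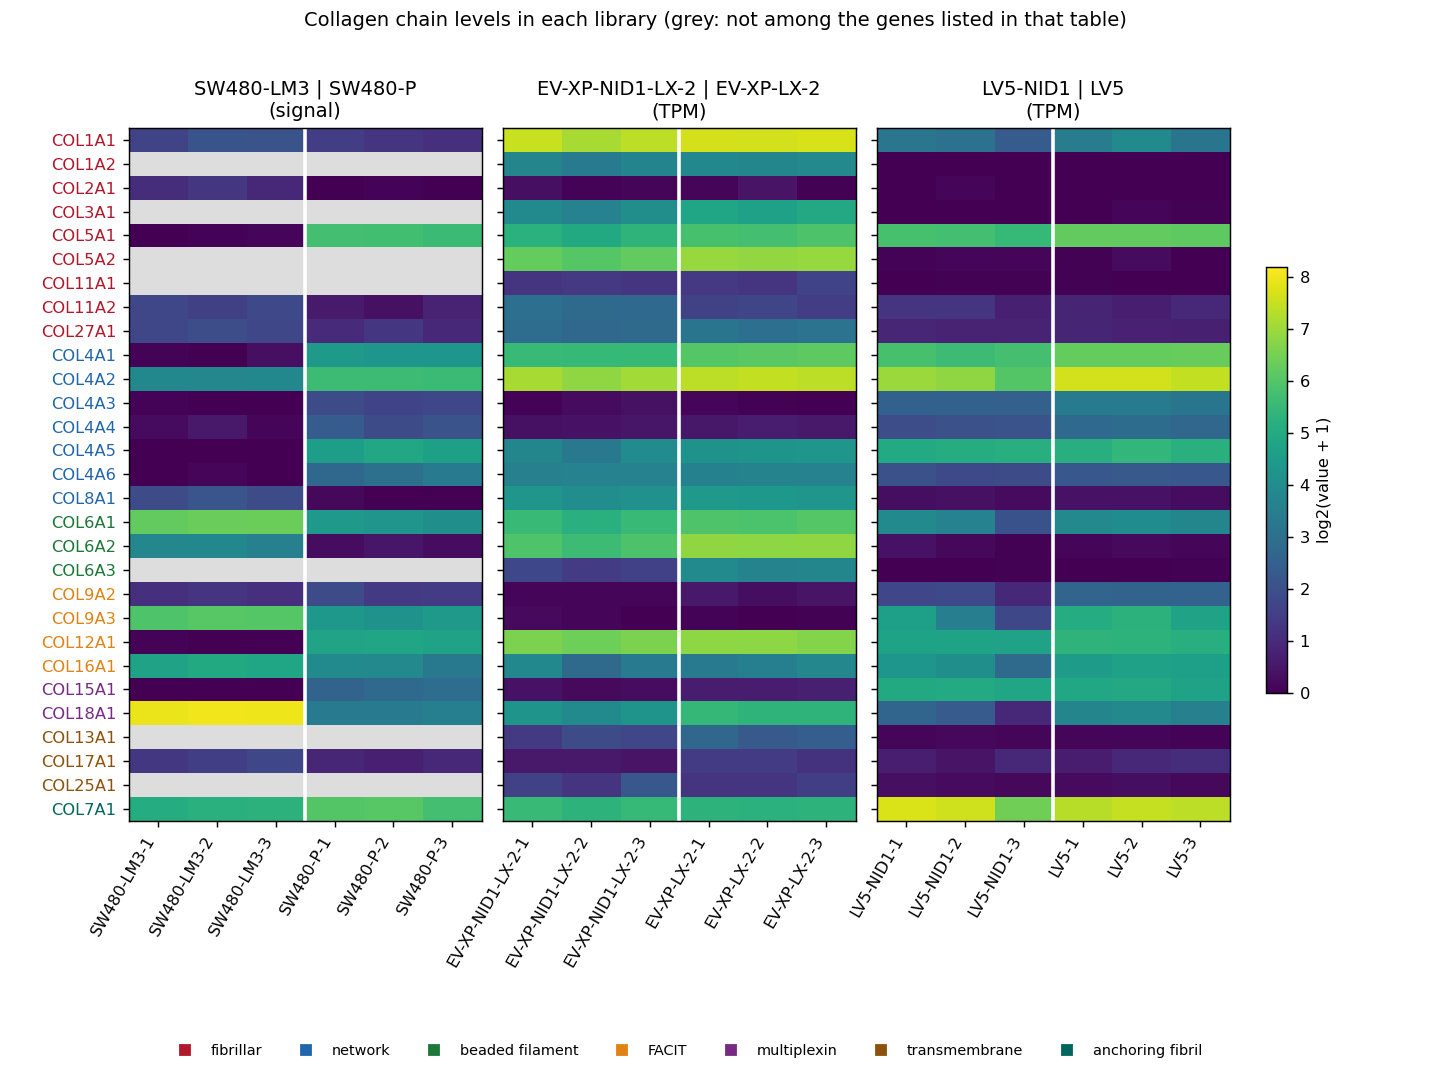
Each cell shows the level of a collagen chain in a library as log2(value + 1), in normalized signal for the left panel and TPM for the others, with chain names coloured by class and grey where a table does not list the chain. The 29 chains that reached a mean of 1 in a group are drawn; the LX-2 libraries fill the fibrillar and beaded filament rows, LV5 and SW480-P share the type IV, COL7A1 and COL15A1 rows, and SW480-LM3 stands out for COL18A1, COL6A1 and COL9A3.

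The order of collagen levels differed between groups, also between groups of the same line. Since the signal of the SW480-LM3 table is not per length, it was divided by transcript length for this order. Per kilobase, COL18A1 (38.5 signal units), COL9A3 (25.4) and COL6A1 (18.5) led in SW480-LM3, whereas COL9A3 (7.67), COL4A2 (7.39) and COL7A1 (6.56) led in SW480-P. COL1A1 (161 TPM) and COL4A2 (129 TPM) led in EV-XP-NID1-LX-2, as COL1A1 (203 TPM) and COL4A2 (169 TPM) did in EV-XP-LX-2. COL7A1 (163 ± 67.9 TPM, SD) and COL4A2 (99.9 ± 32.4 TPM) led in LV5-NID1, with a spread that overlaps between them (193 to 211 and 113 to 124 TPM without replicate 3), and COL4A2 (190 ± 12.7 TPM) and COL7A1 (167 ± 10.6 TPM) led in LV5. Across the 22 chains of both tables, Spearman's rho of these mean levels per length was −0.04 between SW480-LM3 and LV5 and 0.909 between SW480-P and LV5, as a description over chains that share libraries. Against EV-XP-LX-2 it was 0.17 for SW480-LM3 and 0.25 for SW480-P over the same 22 chains, and 0.48 for LV5 over 41 chains.

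Partner chains of a trimer were not all present in LV5-NID1 and LV5 cells. COL1A1 stood at 8.34, 7.29 and 4.19 TPM in LV5-NID1 and 10.1, 13.7 and 8.15 TPM in LV5, while COL1A2, the other chain of type I collagen, was at 0 in every LV5-NID1 library and reached 0.02 TPM in 1 LV5 library. COL5A1 stood at 44.1 to 55.0 TPM in LV5-NID1 and 70.8 to 74.6 TPM in LV5, while its partner COL5A2 did not pass 0.17 TPM in either group. COL6A1 stood at 3.19 to 13.7 TPM in LV5-NID1 and 12.5 to 14.9 TPM in LV5, while COL6A2 did not pass 0.33 TPM and COL6A3 did not pass 0.03 TPM. LX-2 cells held all of these chains, with a COL1A1 to COL1A2 ratio of 14.5 ± 0.86 in EV-XP-NID1-LX-2 and 15.6 ± 0.29 in EV-XP-LX-2 (SD, n = 3 each).

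In SW480-LM3 against SW480-P, collagen chains changed in both directions, as genes at large did. COL18A1, type VI chains and COL9A3 were higher in the selected line, and 5 of the 6 type IV chains, COL5A1, COL12A1 and COL15A1 were near the limit of counting there. Of 21 tested chains, 10 rose and 11 fell at an adjusted p under 0.05 (limma on log2(signal + 1), with a minimum value of 1 required in 3 or more libraries). Among all 14527 genes tested, 43.9% rose and 43.9% fell, so a call by itself says little in this comparison. With a log2 change of at least 1 as well, 7 chains rose, against 23.9% of all genes, and 9 fell, against 21.4%. The median log2 change was −0.42 over the tested chains and −0.004 over all genes. Through SW480-LM3 alone 4 chains passed the filter on low values and through SW480-P alone 8, and these had to differ to be tested.

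COL18A1 had 245, 259 and 256 signal units in SW480-LM3, against 9.26, 9.55 and 10.7 in SW480-P. The groups were far apart: the mean of 254 ± 7.35 was 25.8 times the 9.84 ± 0.77 of SW480-P (SD, n = 3 each; log2 change 4.56, SE 0.06, adjusted p = 7.08e-17). The reads behind it were 13379 in SW480-LM3 and 446 in SW480-P. COL15A1, the other multiplexin, went the opposite way: it had no read in any SW480-LM3 library, against 5.05, 6 and 6.63 signal units in SW480-P. Set against a floor of 3 reads per library, COL15A1 was at least 34.5-fold lower in SW480-LM3 (log2 change −2.78, adjusted p = 8.87e-11).

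COL18A1 has 2 start sites in RefSeq, and their promoter windows (250 bases before to 50 after the start, GRCh38.p14, plus strand) are shown because this chain had the largest rise in SW480-LM3 on the log2(signal + 1) scale. Capitals mark GC boxes (GGGCGG, on either strand) and the TATA box (TATAAA). The upstream window, at chr21:45404915-45405214, holds 9 GC boxes, some of them overlapping, and the downstream window, at chr21:45455272-45455571, holds 1 GC box and 1 TATA box.
COL18A1 upstream: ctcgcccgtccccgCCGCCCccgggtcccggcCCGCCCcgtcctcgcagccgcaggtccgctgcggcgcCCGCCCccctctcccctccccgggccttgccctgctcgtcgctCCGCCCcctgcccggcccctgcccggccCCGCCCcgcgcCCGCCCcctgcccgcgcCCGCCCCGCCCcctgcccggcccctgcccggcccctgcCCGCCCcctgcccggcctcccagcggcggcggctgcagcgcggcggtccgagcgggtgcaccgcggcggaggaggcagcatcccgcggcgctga
COL18A1 downstream: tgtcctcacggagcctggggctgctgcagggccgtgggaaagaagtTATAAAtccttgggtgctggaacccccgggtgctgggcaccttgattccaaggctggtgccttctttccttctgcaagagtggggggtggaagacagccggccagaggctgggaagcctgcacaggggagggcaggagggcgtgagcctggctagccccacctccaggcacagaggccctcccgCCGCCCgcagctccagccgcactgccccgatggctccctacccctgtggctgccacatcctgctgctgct
Of all 35116 RefSeq windows of this length, 44.95% held a GC box, 11.5% a TATA box and 34.6% a CCAAT box (CCAAT, either strand). Of the 44 collagen windows, from 32 of the 42 chains, 24 held a GC box, 8 a TATA box and 14 a CCAAT box. A match is a description of the letters and no evidence of a bound factor, and gene-level values do not say which start was used.

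The type IV chains fell together in SW480-LM3, except that COL4A2 kept a sizeable level. COL4A1 and COL4A2, which pair in the common basement membrane trimer, fell by folds whose counting intervals do not overlap. COL4A1 had 0.058, 0 and 0.271 signal units in SW480-LM3, against 20.6, 19.0 and 19.0 in SW480-P, from 6 and 885 reads (171-fold lower, 95% interval 78.4 to 468 by an exact binomial interval; log2 change −4.22, SE 0.14, adjusted p = 4.53e-13). COL4A2 had 13.3, 12.8 and 13.1 in SW480-LM3, against 48.6, 48.5 and 46.9 in SW480-P (3.69-fold lower, interval 3.38 to 4.02; log2 change −1.80, SE 0.07, adjusted p = 3.26e-12). Neither gene's groups overlapped, as was so, in either direction, for 87.6% of all tested genes. Per kilobase, COL4A1 stood at 0.008 ± 0.011 of COL4A2 in SW480-LM3 and 0.399 ± 0.017 in SW480-P.

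The genes of this pair lie head to head on chromosome 13, with starts 127 bases apart, so the COL4A2 window holds both starts. It is shown because the shared promoter region stands beside changes of unequal size. It spans chr13:110307034-110307333 (GRCh38.p14, plus strand), with the COL4A1 start at position 124, read leftwards, and the COL4A2 start at position 251, and capitals mark a CCAAT box and a GC box.
COL4A2 with COL4A1: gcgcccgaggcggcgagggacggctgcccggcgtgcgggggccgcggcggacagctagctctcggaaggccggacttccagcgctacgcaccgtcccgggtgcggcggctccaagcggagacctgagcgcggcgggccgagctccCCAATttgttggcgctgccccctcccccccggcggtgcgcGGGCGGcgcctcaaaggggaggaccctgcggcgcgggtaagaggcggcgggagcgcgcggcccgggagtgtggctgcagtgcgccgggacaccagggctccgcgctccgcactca
The other type IV genes are paired in the same way. Between the starts that define the promoter windows lie 419 bases for COL4A4 and COL4A3, and 380 for COL4A6 and COL4A5. The annotated COL4A4 gene extends past its window's start, to chr2:227164488, nearer to the COL4A3 start at chr2:227164624.

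COL4A5 had no read in SW480-LM3, against 23.4, 28.4 and 24.2 signal units in SW480-P, at least 148-fold lower against the floor of 3 reads per library (log2 change −4.71, SE 0.13, adjusted p = 7.03e-14). Its neighbour COL4A6 had 2 reads in SW480-LM3 and 333 in SW480-P, a 193-fold difference with an interval of 53.1 to 1603 (log2 change −2.99, SE 0.16, adjusted p = 1.98e-10). COL4A3 had 1 read in SW480-LM3 and 107 in SW480-P (124-fold lower, interval 21.8 to 4954), and COL4A4 had 13 and 151 (13.5-fold lower, 7.65 to 25.9). These intervals cover counting error only. COL8A1, a network chain outside type IV, was the exception in its class, with 155 reads in SW480-LM3 and 2 in SW480-P (66.7-fold higher, 18.2 to 556; log2 change 1.91, adjusted p = 1.30e-08).

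**Figure D2:**
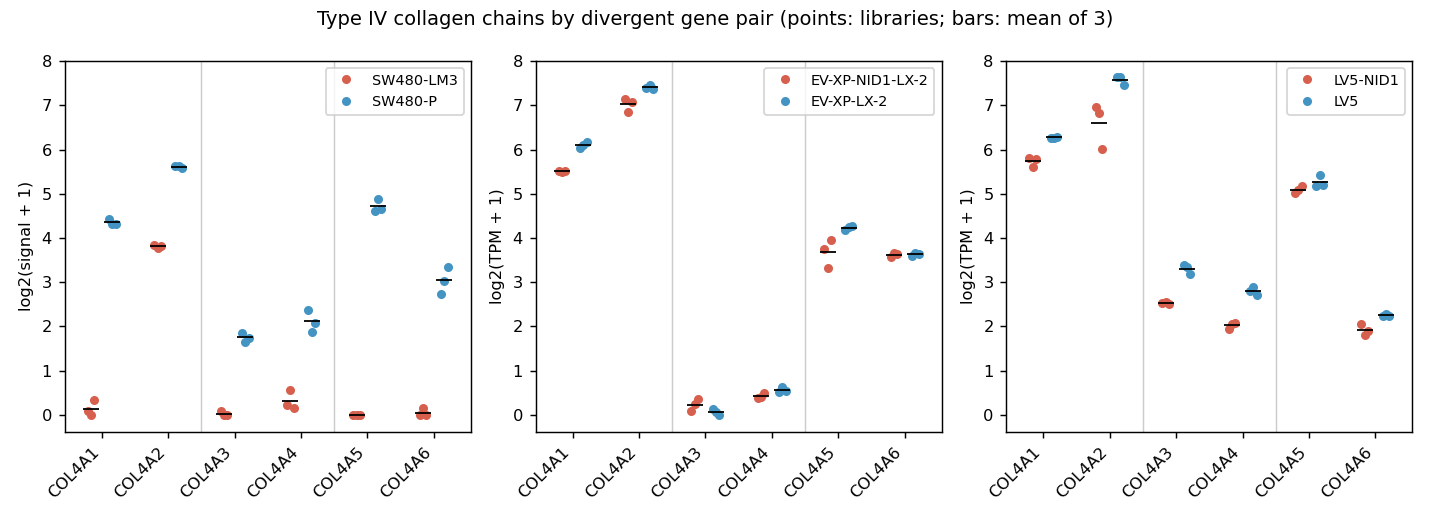
Points are libraries and bars are means of 3, on a log2(value + 1) axis, with the first-named group of each legend left of its control and grey lines between the divergent gene pairs. In the left panel 5 of 6 type IV chains lie near 0 in SW480-LM3 while COL4A2 does not; in the right panel 1 LV5-NID1 point of COL4A2 lies below the other 2.

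Type VI chains rose in SW480-LM3. COL6A1 had 74.9, 79.7 and 80.9 signal units in SW480-LM3, against 20.0, 18.3 and 15.9 in SW480-P (4.34-fold; log2 change 2.06, SE 0.08, adjusted p = 2.37e-12). COL6A2 had 13.0, 13.3 and 11.01 in SW480-LM3, against 0.214, 0.408 and 0.211 in SW480-P, from 654 and 13 reads (43.3-fold, interval 25.2 to 81.8; log2 change 3.39, SE 0.14, adjusted p = 6.19e-12). Per kilobase, COL6A2 stood at 0.195 ± 0.025 of COL6A1 in SW480-LM3 and 0.019 ± 0.007 in SW480-P.

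Among FACIT chains, COL9A3 and COL16A1 rose and COL12A1 all but vanished in SW480-LM3. COL9A3, a type IX chain, had 59.9, 66.0 and 64.4 signal units in SW480-LM3, against 19.7, 17.6 and 20.2 in SW480-P (3.31-fold; log2 change 1.68, SE 0.07, adjusted p = 9.04e-12). COL16A1 averaged 28.0 ± 2.77 in SW480-LM3 and 12.2 ± 2.73 in SW480-P (log2 change 1.16, SE 0.13, adjusted p = 1.21e-06). COL12A1 had 1 read in SW480-LM3 and 1215 in SW480-P, where it stood at 26.6, 28.0 and 25.4 signal units (1411-fold lower, interval 253 to 55780; log2 change −4.76, adjusted p = 3.70e-14). COL9A2 averaged 1.22 ± 0.11 in SW480-LM3 and 2.01 ± 0.60 in SW480-P (log2 change −0.42, adjusted p = 0.0222), and this call was lost without SW480-LM3 replicate 1 (adjusted p = 0.0554), without SW480-LM3 replicate 3 (0.0584) and without SW480-P replicate 1 (0.0982), in DESeq2 on the recovered reads (0.0764), and with libraries scaled to their totals (log2 change −0.25, adjusted p = 0.148).

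The promoter window of COL12A1, at chr6:75206004-75206303 (GRCh38.p14, minus strand), is shown because this chain fell in all 3 comparisons, and it holds 2 GC boxes, in capitals, and no CCAAT or TATA box.
COL12A1: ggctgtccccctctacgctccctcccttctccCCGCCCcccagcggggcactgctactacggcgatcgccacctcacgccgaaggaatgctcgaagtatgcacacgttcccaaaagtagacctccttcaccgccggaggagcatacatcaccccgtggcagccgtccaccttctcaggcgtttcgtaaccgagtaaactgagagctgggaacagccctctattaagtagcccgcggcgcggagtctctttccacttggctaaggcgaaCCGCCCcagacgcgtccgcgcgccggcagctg

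Of the fibrillar chains, COL5A1, which regulates fibril diameter, fell and the low chains rose. COL5A1 had 0, 0.059 and 0.108 signal units in SW480-LM3, against 53.0, 51.1 and 47.0 in SW480-P, from 3 and 2288 reads (886-fold lower, interval 303 to 4298; log2 change −5.60, SE 0.12, adjusted p = 4.38e-15). COL11A2 averaged 2.27 ± 0.30 in SW480-LM3 and 0.521 ± 0.24 in SW480-P (log2 change 1.11, adjusted p = 1.03e-05), COL27A1 2.55 ± 0.28 and 1.12 ± 0.29 (log2 change 0.75), and COL1A1 2.95 ± 0.65 and 1.46 ± 0.30 (log2 change 0.68). COL2A1, the cartilage chain, had 60 reads in SW480-LM3 and 1 in SW480-P and did not pass the filter. The hemidesmosome chain COL17A1 averaged 1.91 ± 0.41 in SW480-LM3 and 0.804 ± 0.14 in SW480-P (log2 change 0.68, adjusted p = 0.000744). COL7A1, the anchoring fibril chain, averaged 35.5 ± 2.48 in SW480-LM3 and 60.9 ± 7.13 in SW480-P (log2 change −0.76, SE 0.08, adjusted p = 4.87e-07).

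GC content moved with these results. Genes with a GC content of at least 60% had a median log2 change of 0.68 and genes under 45% one of −0.39, and the tested collagens had a median GC content of 61.1%, against 49.1% for all tested genes. With the GC and length trends of each library removed, 5 chains rose and 13 fell. COL1A1 (log2 change −0.47, adjusted p = 0.00868) and COL27A1 (−0.47, 0.00669) were then called lower, COL11A2 (−0.076) and COL17A1 (−0.18) changed sign without a call, and COL16A1 was no longer called (0.028). The calls of these 5 chains as higher, COL16A1 with 1475 reads in SW480-LM3 and 556 in SW480-P among them, thus depend on that step. COL18A1, COL6A1, COL6A2, COL9A3 and COL8A1 stayed higher, and the 5 type IV chains other than COL4A2, and COL4A2, COL5A1, COL12A1 and COL15A1 stayed lower, in every alternative tried for them. Of these, COL6A2 and COL8A1 passed the filter on low values through SW480-LM3 alone. COL5A1, COL12A1, COL15A1 and the type IV chains other than COL4A2 passed it through SW480-P alone. Such chains had to differ to be tested, so their kept calls are no separate support.

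**Figure D3:**
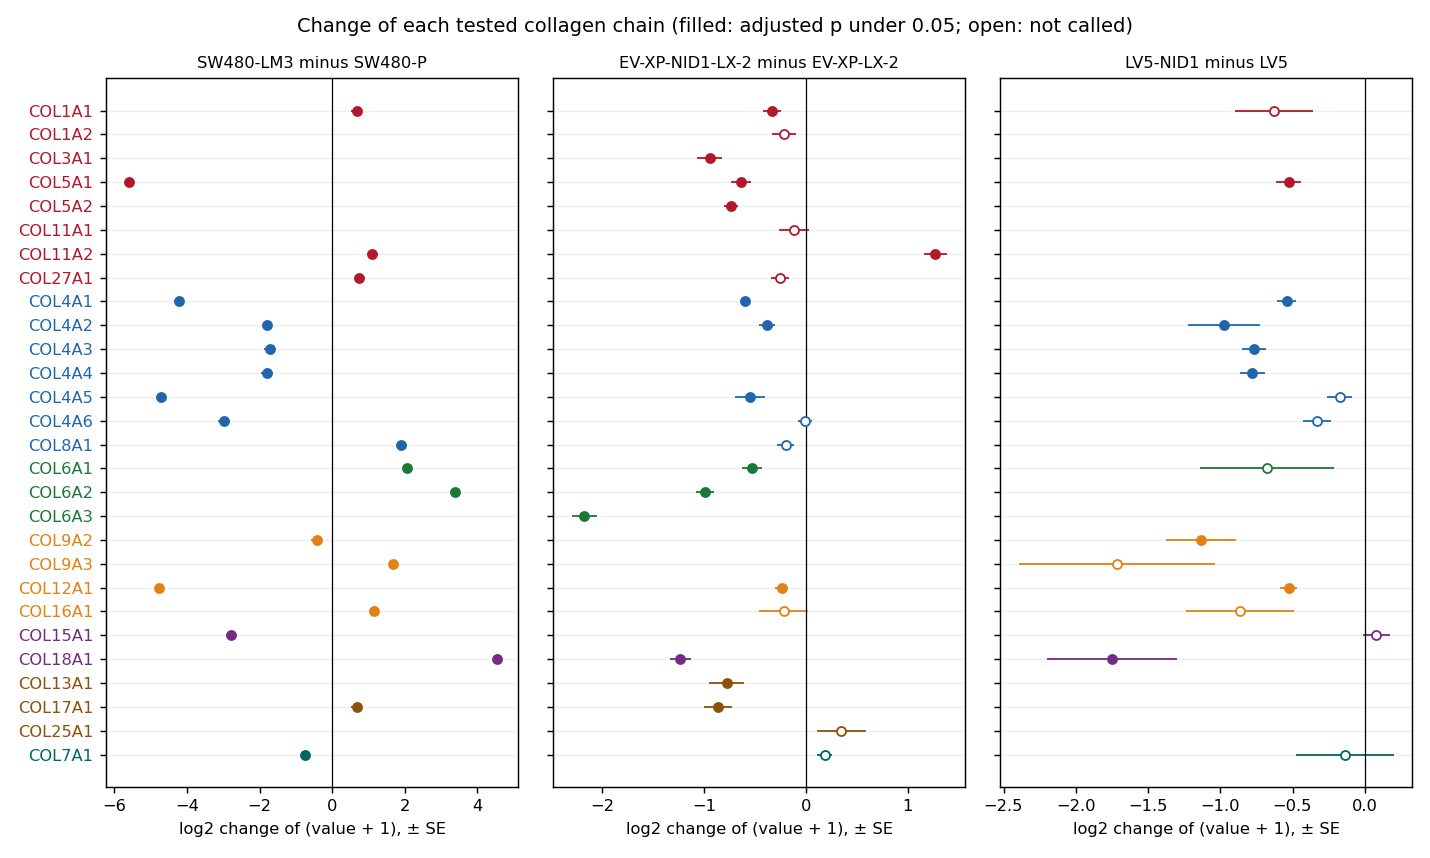
Points are log2 changes of (value + 1) with their standard errors for every tested collagen chain, filled where the adjusted p is under 0.05 and coloured by class; the axes of the 3 panels differ in range. In SW480-LM3 chains lie on both sides of 0, from −5.60 (COL5A1) to 4.56 (COL18A1), and in the other 2 comparisons every called chain but COL11A2 lies left of 0.

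In LX-2 cells given NID1 vesicles, collagen mRNA was lower in nearly every class. Of 23 tested chains, 14 fell, 1 rose and 8 were not called. Among all 15802 genes tested, 24.6% fell and 17.8% rose. With a log2 change of at least 1, 2 chains fell, COL6A3 and COL18A1, against 1.22% of all genes, and 1 rose, COL11A2, against 0.557%. The median log2 change was −0.39 over the tested chains and −0.05 over all genes, and 22 of the 23 passed the filter through both groups. GC content moved with this comparison too: genes of at least 60% GC had a median log2 change of −0.19 and those under 45% one of 0.03, and the tested collagens had a median GC content of 55.9%, against 48.1% for all tested genes. With GC and length trends removed, 14 chains fell and 2 rose. The 18 chains that did not pass stayed at or under 0.65 TPM in every library. In bulk RNA, fewer cells of a kind and less RNA per cell cannot be told apart.

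Summed over all chains, collagen mRNA was 789 ± 81.6 TPM in EV-XP-NID1-LX-2 and 1107 ± 13.9 TPM in EV-XP-LX-2 (SD, n = 3 each). The groups did not overlap, as was so, in either direction, for 55.9% of all tested genes. Fibrillar chains summed to 307 ± 35.1 against 429 ± 13.6 TPM, network chains to 214 ± 17.5 against 286 ± 5.88 TPM, and beaded filament chains to 101 ± 12.7 against 186 ± 6.50 TPM. FACIT chains summed to 101 ± 9.92 against 119 ± 3.24 TPM and multiplexins to 17.0 ± 2.38 against 41.1 ± 1.74 TPM. Fibrillar chains took 38.9% of collagen TPM in EV-XP-NID1-LX-2 and 38.8% in EV-XP-LX-2, and beaded filament chains 12.7% and 16.8%. Within EV-XP-NID1-LX-2, replicate 2 was the lowest in total and was low for GC-rich transcripts, with a median deviation of −0.26 on the log2 scale over the tested chains.

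**Figure D4:**
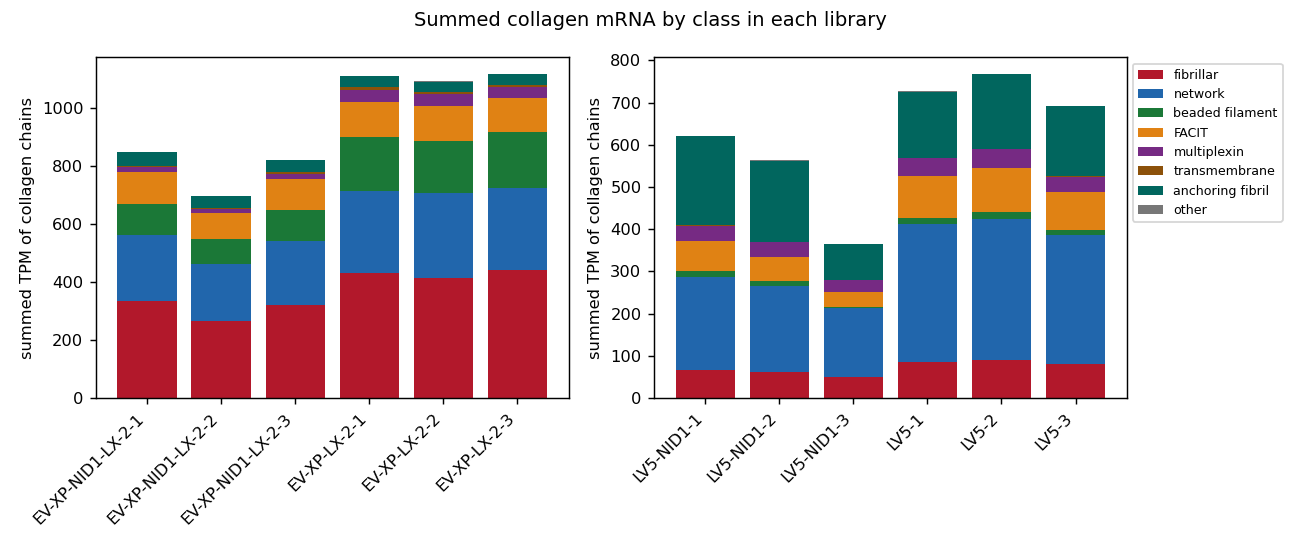
Bars are the summed TPM of all listed collagen chains in each library, stacked by class. The 3 EV-XP-NID1-LX-2 bars all lie below the 3 EV-XP-LX-2 bars with fibrillar, network and beaded filament chains all smaller; the LV5-NID1 bars lie below the LV5 bars, with replicate 3 the lowest.

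All 3 tested type VI chains fell in LX-2. COL6A3, the long chain of type VI collagen, had 2.43, 1.66 and 2.09 TPM in EV-XP-NID1-LX-2, against 14.2, 11.7 and 12.6 TPM in EV-XP-LX-2. The groups were widely separated (6.22-fold lower; log2 change −2.18, SE 0.12, adjusted p = 0.000163). COL6A2 had 61.1, 48.1 and 59.8 TPM in EV-XP-NID1-LX-2, against 112, 110 and 115 TPM in EV-XP-LX-2 (log2 change −0.99, SE 0.09, adjusted p = 0.000432). COL6A1 averaged 42.1 ± 5.21 TPM in EV-XP-NID1-LX-2 and 61.1 ± 3.75 TPM in EV-XP-LX-2 (log2 change −0.53, SE 0.10, adjusted p = 0.00449). The ratio of COL6A1 to COL6A3 was thus 18.6, 21.8 and 21.6 in EV-XP-NID1-LX-2 and 4.27, 4.94 and 5.17 in EV-XP-LX-2. The promoter window of COL6A3, the chain that fell furthest in LX-2, at chr2:237414115-237414414 (GRCh38.p14, minus strand), holds none of the 3 motifs and so has no capitals.
COL6A3: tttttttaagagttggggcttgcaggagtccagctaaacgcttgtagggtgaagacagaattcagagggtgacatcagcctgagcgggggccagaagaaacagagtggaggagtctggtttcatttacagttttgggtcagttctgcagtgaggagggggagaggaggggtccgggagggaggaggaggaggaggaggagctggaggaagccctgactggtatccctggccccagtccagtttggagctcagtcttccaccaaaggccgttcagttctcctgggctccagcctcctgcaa

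COL18A1 had 18.1, 14.1 and 18.1 TPM in EV-XP-NID1-LX-2, against 42.6, 39.4 and 39.6 TPM in EV-XP-LX-2 (2.42-fold lower; log2 change −1.23, SE 0.10, adjusted p = 0.000313). COL3A1, the fibrillar chain that accompanies type I in early scar, had 14.2, 11.4 and 15.6 TPM with NID1 vesicles, against 27.4, 24.8 and 29.7 TPM (log2 change −0.95, SE 0.12, adjusted p = 0.00117). COL5A2 averaged 71.2 ± 6.11 TPM in EV-XP-NID1-LX-2 and 119 ± 3.29 TPM in EV-XP-LX-2 (log2 change −0.73, SE 0.07, adjusted p = 0.000461), and COL5A1 35.5 ± 4.604 and 55.5 ± 3.46 TPM (log2 change −0.64). For each of these 4 chains every EV-XP-NID1-LX-2 library was below every EV-XP-LX-2 library. Of all tested genes, 55.9% had groups that did not overlap, in either direction.

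Of the type I chains, COL1A1 fell and COL1A2 was not called. COL1A1, the most abundant collagen mRNA of both groups, had 180, 139 and 165 TPM in EV-XP-NID1-LX-2, against 205, 198 and 206 TPM in EV-XP-LX-2 (log2 change −0.34, SE 0.09, adjusted p = 0.0212). It was not called when EV-XP-LX-2 replicate 1 (adjusted p = 0.0624) or replicate 3 (0.0609) was left out, or with no filter on low values (0.0640). COL1A2 averaged 11.2 ± 1.81 TPM in EV-XP-NID1-LX-2 and 13.0 ± 0.50 TPM in EV-XP-LX-2 (log2 change −0.22, adjusted p = 0.177). COL11A2 was the chain that rose, with 7.04, 6.07 and 6.01 TPM in EV-XP-NID1-LX-2, against 2.1, 2.26 and 1.80 TPM in EV-XP-LX-2 (3.10-fold; log2 change 1.27, SE 0.11, adjusted p = 0.000377). COL11A1 averaged 1.46 TPM with NID1 vesicles and 1.69 TPM in EV-XP-LX-2, COL27A1 6.24 and 7.63 TPM, and neither was called, though COL27A1 was without a variance trend (adjusted p = 0.0375) and without mitochondrial genes (0.0389).

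Of the type IV chains, COL4A1 had 44.8, 43.8 and 44.5 TPM in EV-XP-NID1-LX-2, against 64.6, 67.9 and 70.7 TPM in EV-XP-LX-2 (log2 change −0.60, SE 0.05, adjusted p = 0.000339). COL4A2 averaged 129 ± 13.6 TPM in EV-XP-NID1-LX-2 and 169 ± 5.10 TPM in EV-XP-LX-2 (log2 change −0.39, SE 0.08, adjusted p = 0.00717). COL4A5 averaged 12.03 ± 2.75 and 17.8 ± 0.61 TPM (log2 change −0.55, SE 0.15, adjusted p = 0.0223), a call that was lost without any 1 of the 3 EV-XP-LX-2 libraries (adjusted p = 0.0515 to 0.0624) and with no filter on low values (0.0674). COL4A6, its head-to-head neighbour, averaged 11.3 ± 0.41 and 11.4 ± 0.31 TPM and was not called (adjusted p = 0.928). COL8A1 averaged 16.8 TPM in EV-XP-NID1-LX-2 and 19.4 TPM in EV-XP-LX-2 and was not called (adjusted p = 0.0848), though it was without EV-XP-NID1-LX-2 replicate 1 (0.0445).

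COL12A1, the FACIT chain of dense connective tissue, averaged 91.3 ± 6.66 TPM in EV-XP-NID1-LX-2 and 108 ± 4.75 TPM in EV-XP-LX-2 (log2 change −0.24, SE 0.07, adjusted p = 0.0233). It was no longer called without EV-XP-LX-2 replicate 1 (adjusted p = 0.0804) or replicate 2 (0.0787), or with no filter on low values (0.0562). COL16A1 averaged 9.57 ± 3.48 and 10.9 ± 1.86 TPM and was not called. The transmembrane chains COL17A1 (0.43 against 1.61 TPM; log2 change −0.87, adjusted p = 0.00282) and COL13A1 (2.27 against 4.59 TPM; log2 change −0.78, adjusted p = 0.00934) fell, COL17A1 having passed the filter through EV-XP-LX-2 alone, and COL25A1 averaged 2.37 ± 1.16 against 1.56 ± 0.28 TPM and was not called. COL7A1 had 46.6, 38.8 and 44.0 TPM in EV-XP-NID1-LX-2, against 38.3, 36.7 and 38.0 TPM in EV-XP-LX-2. Its groups did not overlap, but it was not called (log2 change 0.19, adjusted p = 0.0793) unless EV-XP-NID1-LX-2 replicate 2 was left out (log2 change 0.26, adjusted p = 0.00603) or the libraries were rescaled or corrected for GC.

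In LV5-NID1 against LV5, the collagens that were called all fell, with type IV chains, COL5A1, COL12A1, COL9A2 and COL18A1 among them. Of 16 tested chains, 8 fell, none rose by limma and 8 were not called, and at an unadjusted p under 0.05 the counts were 10 and 0. Among all 15508 genes tested, 9.32% fell and 7.27% rose. With a log2 change of at least 1, 2 chains fell, COL9A2 and COL18A1, against 1.28% of all genes, and none rose, against 0.142%. The median log2 change was −0.65 over the tested chains and 0.01 over all genes, and −0.36 over genes of at least 60% GC, where the tested collagens had a median GC content of 60.7%, against 48.4% for all tested genes. Without LV5-NID1 replicate 2, and without any 1 of the LV5 libraries, 4 chains fell. The other 26 chains stayed at or under 1.35 TPM in every library.

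LV5-NID1 replicate 3 decided several of these values. Its deviation from the mean of replicates 1 and 2 fell with GC content: the Spearman correlation over 14508 genes of its deviation from the group mean was −0.55, and genes of at least 60% GC had a median deviation of −0.66 (log2). The 9 tested chains of at least 60% GC stood in replicate 3 at 0.143 to 0.820 of their mean in replicates 1 and 2, and the 7 chains under 60% at 0.872 to 1.09. Without replicate 3, 9 chains fell and 1 rose: COL7A1 (log2 change 0.27, adjusted p = 0.0386). The part of RNA quality in this library's profile was not tested.

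**Figure D5:**
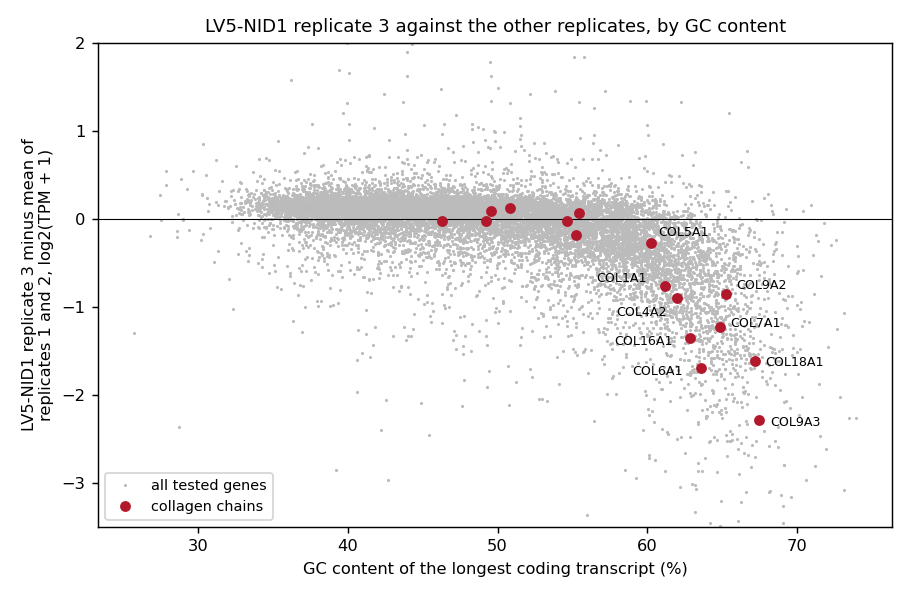
Each point is a gene: its GC content (%) on the x axis and, on the y axis, the log2(TPM + 1) of LV5-NID1 replicate 3 minus the mean of replicates 1 and 2; collagen chains are red, those of at least 60% GC are named, and 37 of 14508 genes lie outside the drawn range. Chains under 60% GC sit near 0, and those above it fall away to COL9A3, at 0.143 of the other replicates in TPM.

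Of the 8 calls, 4 were of chains under 60% GC, whose levels in replicate 3 stood near those of the other replicates. COL4A1 had 54.8, 48.0 and 53.8 TPM in LV5-NID1, against 76.1, 75.8 and 77.0 TPM in LV5 (1.46-fold lower; log2 change −0.54, SE 0.06, adjusted p = 0.00552). COL4A3 had 4.82, 4.86 and 4.72 TPM in LV5-NID1, against 9.46, 9.14 and 8.06 TPM in LV5 (log2 change −0.77, SE 0.08, adjusted p = 0.00421). COL4A4, its head-to-head neighbour, had 2.85, 3.13 and 3.25 TPM in LV5-NID1, against 5.97, 6.42 and 5.58 TPM in LV5 (log2 change −0.78, SE 0.09, adjusted p = 0.00496). COL12A1 had 26.0, 26.0 and 25.6 TPM in LV5-NID1, against 39.3, 38.3 and 35.5 TPM in LV5 (log2 change −0.52, SE 0.06, adjusted p = 0.00496). For all 4 chains the groups were apart in every library, as they were, in either direction, for 43.3% of all tested genes. The call held in every alternative tried for these 4 chains.

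The other 4 calls were of chains of at least 60% GC. COL4A2 had 124, 113 and 63.1 TPM in LV5-NID1, against 197, 197 and 175 TPM in LV5 (log2 change −0.97, SE 0.25, adjusted p = 0.0475). COL18A1 had 5.44, 4.07 and 0.87 TPM in LV5-NID1, against 12.4, 13.5 and 10.9 TPM in LV5 (log2 change −1.75, SE 0.45, adjusted p = 0.0478). COL9A2 had 2.32, 2.5 and 0.88 TPM in LV5-NID1, against 5.32, 5.16 and 4.91 TPM in LV5 (log2 change −1.13, SE 0.24, adjusted p = 0.0302). COL5A1 averaged 50.5 ± 5.72 TPM in LV5-NID1 and 73.0 ± 1.97 TPM in LV5 (log2 change −0.53, SE 0.09, adjusted p = 0.0161). Beside 43.3% of all tested genes with groups apart in either direction, all 4 remained lower in each LV5-NID1 library than in any LV5 library. Each was no longer called without LV5-NID1 replicate 2 (adjusted p = 0.0560 to 0.0989) or without any 1 of the LV5 libraries (0.0522 to 0.137), and each was called without LV5-NID1 replicate 3, with log2 changes of −0.68 for COL4A2, −1.21 for COL18A1, −0.85 for COL9A2 and −0.43 for COL5A1. COL9A2, COL4A2 and COL18A1 also lost their calls with the replicate block (adjusted p = 0.0574, 0.0568 and 0.0642) and with no filter on low values (0.0740, 0.104 and 0.106). Without a variance trend COL4A2 (0.0545) and COL18A1 (0.0533) were not called, nor was COL4A2 under quantile normalization (0.0527) or COL18A1 with a pseudocount of 0.1 (0.0725).

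COL9A3 had 23.6, 10.5 and 2.43 TPM in LV5-NID1, against 32.6, 37.5 and 25.4 TPM in LV5, and was not called (log2 change −1.71, SE 0.68, adjusted p = 0.135). Its log2 change was −0.95 without LV5-NID1 replicate 3 (adjusted p = 0.0922) and −2.37 without replicate 1, when it was called (0.0487). COL16A1 had 18.7, 16.1 and 6.17 TPM in LV5-NID1, against 21.5, 24.7 and 24.0 TPM in LV5, and was called only without LV5-NID1 replicate 3 (log2 change −0.41, adjusted p = 0.0296). COL7A1 had 211, 193 and 85.3 TPM in LV5-NID1, against 157, 178 and 165 TPM in LV5, so 2 LV5-NID1 libraries lay above LV5 and replicate 3 below it (adjusted p = 0.795). COL4A6 averaged 2.79 against 3.75 TPM (adjusted p = 0.0627, and 0.0447 without a variance trend), COL4A5 33.2 against 37.7 TPM (0.220), and COL15A1 29.7 against 28.0 TPM (0.553). COL1A1 (log2 change −0.63, adjusted p = 0.157) and COL6A1 (−0.68, 0.341) were not called, and without LV5-NID1 replicate 3 their log2 changes were −0.38 and −0.11. Network chains summed to 196 ± 30.0 TPM in LV5-NID1 and 323 ± 15.3 TPM in LV5, and all chains to 516 ± 133 TPM and 729 ± 38.7 TPM. In LV5-NID1 replicates 1 and 2 alone, network chains summed to 221 and 204.5 TPM and all chains to 620 and 563 TPM, below every LV5 library.

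Set side by side, COL4A1, COL4A2, COL5A1 and COL12A1 fell in all 3 comparisons, which share no libraries, and no chain rose in all 3. Of the 11 chains tested in all 3 tables these were 4, and 190 of the 11562 genes tested in all 3 (1.64%) fell in each. Only COL4A1 among these 4 kept its call under every alternative in all 3 comparisons: in LV5-NID1, COL4A2 kept it in 8 of 16 alternatives and COL5A1 in 12 of 16, and in EV-XP-NID1-LX-2, COL12A1 kept it in 13 of 16. In SW480-LM3 against SW480-P, COL4A1, COL5A1 and COL12A1 passed the filter on low values through SW480-P alone. There they had to be lower to be tested, so those falls and kept calls are no separate support. COL12A1 fell by 4.76 in SW480-LM3, by 0.24 in EV-XP-NID1-LX-2 and by 0.52 in LV5-NID1 on the log2 scale. COL5A1 fell by 5.60, 0.64 and 0.53 in the same order. COL18A1 was the chain that rose in SW480-LM3 and fell in EV-XP-NID1-LX-2 and LV5-NID1, a pattern of 130 genes (1.12%), though its LV5-NID1 call held in 8 of 16 alternatives. Whether a change differed in size between the comparisons was not tested, since the tables were normalized separately.

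Genes that make, cut, bind or surround collagen were counted from lists. Some of them, COLGALT2, NID1 and TLL1 included, passed the filter on low values in SW480-LM3 against SW480-P through 1 group alone. So did the markers CDH17, LYZ and ESAM in that comparison, and NID1 in LV5-NID1 against LV5. Such genes had to differ to be tested, and the counts include them. The counts that follow stand beside 43.9% of all tested genes higher and 43.9% lower in SW480-LM3. In EV-XP-NID1-LX-2 these shares were 17.8% and 24.6%, and in LV5-NID1 7.27% and 9.32%. Synthesis enzymes, which hydroxylate, glycosylate, fold and crosslink the chains, numbered 10 higher and 11 lower of 25 tested in SW480-LM3, near the shares of all genes. COLGALT2, a collagen galactosyltransferase, averaged 94.6 signal units in SW480-LM3 and 0.796 in SW480-P (log2 change 5.74), and the prolyl hydroxylase subunit P4HB 797 and 312 (1.35), whereas CRTAP, of the prolyl 3-hydroxylation complex, averaged 58.5 and 233 (−1.98). In EV-XP-NID1-LX-2, 13 fell and 3 rose of 22 tested. The prolyl hydroxylase P4HA1 averaged 26.4 TPM in EV-XP-NID1-LX-2 and 43.8 TPM in EV-XP-LX-2 (−0.71), and the crosslinking oxidases LOXL2 230 and 444 TPM (−0.95) and LOX 118 and 199 TPM (−0.75). In LV5-NID1, 6 fell and 1 rose of 23 tested, with P4HA3 at 9.13 TPM in LV5-NID1 and 16.7 TPM in LV5 (−0.80), LOXL2 at 14.5 and 31.7 TPM (−1.08), and LOX, the gene that rose, at 11.9 and 7.99 TPM (0.51).

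Of propeptide processing genes, 1 rose and 5 fell of 6 tested in SW480-LM3. The procollagen peptidase ADAMTS14 averaged 26.5 signal units in SW480-LM3 and 0.927 in SW480-P, the enhancer PCOLCE2 1.46 and 26.3, and the peptidase TLL1 was at 0 in SW480-LM3 and 14.4 in SW480-P. In EV-XP-NID1-LX-2, 3 fell of 4 tested, with the enhancer PCOLCE at 27.2 TPM in EV-XP-NID1-LX-2 and 54.3 TPM in EV-XP-LX-2, BMP1, the procollagen C-proteinase, at 38.2 and 53.6 TPM, and TLL1 at 4.08 and 5.69 TPM. In LV5-NID1, 2 fell of 5 tested, BMP1 at 22.8 TPM in LV5-NID1 and 34.6 TPM in LV5 and PCOLCE2 at 22.0 and 28.6 TPM.

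Collagen receptors numbered 3 higher and 5 lower of 9 tested in SW480-LM3. The adhesion receptor ADGRG1 averaged 220 signal units in SW480-LM3 and 13.5 in SW480-P, whereas the integrin chains ITGA1 (9.13 and 75.6) and ITGB1 (483 and 1245) were lower. In EV-XP-NID1-LX-2, 7 fell of 11 tested, with the endocytic receptor MRC2 at 21.6 TPM in EV-XP-NID1-LX-2 and 38.8 TPM in EV-XP-LX-2, CSPG4, a binder of type VI collagen, at 27.7 and 44.4 TPM, and ITGB1 at 528 and 671 TPM. In LV5-NID1, 3 fell of 9 tested: ITGB1 at 321 TPM in LV5-NID1 and 408 TPM in LV5, ITGA1 at 13.2 and 21.1 TPM, and ADGRG1 at 9.38 and 19.7 TPM.

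Of genes of collagen breakdown, 2 rose and 1 fell of 4 tested in SW480-LM3, with the protease MMP14 at 14.3 signal units in SW480-LM3 and 7.41 in SW480-P, the inhibitor TIMP2 at 144 and 62.9, and TIMP3 at 3.62 and 24.9. In EV-XP-NID1-LX-2, 2 rose and 5 fell of 8 tested, with TIMP2 at 131 TPM in EV-XP-NID1-LX-2 and 211 TPM in EV-XP-LX-2, MMP2 at 73.6 and 129 TPM and MMP14 at 82.5 and 126 TPM. In LV5-NID1, 3 fell of 4 tested, TIMP2 at 104 TPM in LV5-NID1 and 159 TPM in LV5, TIMP1 at 155 and 189 TPM and TIMP3 at 5.24 and 7.36 TPM.

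Basement membrane partners rose more often than they fell in SW480-LM3, with 8 higher and 4 lower of 12 tested, beside type IV chains that fell. NID1, LAMB3 (94.3 signal units in SW480-LM3 and 17.9 in SW480-P) and LAMA5 (245 and 62.1), both laminin chains, had the smallest adjusted p. In EV-XP-NID1-LX-2, 12 fell of 15 tested, with the collagen-binding protein SPARC at 291 TPM in EV-XP-NID1-LX-2 and 490 TPM in EV-XP-LX-2, LAMC1 at 86.3 and 143 TPM, and NID2 at 7.23 and 13.9 TPM. In LV5-NID1, NID1 rose and 5 fell of 12 tested, with LAMA1 at 10.9 TPM in LV5-NID1 and 25.3 TPM in LV5 and NID2 at 3.04 and 10.1 TPM. Of fibril partners, 4 rose and 1 fell of 5 tested in SW480-LM3, 2 fell of 4 in EV-XP-NID1-LX-2 and 1 fell of 2 in LV5-NID1.

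Regulators of collagen transcription numbered 9 higher and 8 lower of 17 tested in SW480-LM3. SOX9, the activator of cartilage collagens, averaged 178 signal units in SW480-LM3 and 8.37 in SW480-P, CBFB, the partner of RUNX factors, 297 and 79.1, and the receptor TGFBR1 29.3 and 102. In EV-XP-NID1-LX-2, 3 rose and 3 fell of 18 tested, with TGFB2 at 29.1 TPM in EV-XP-NID1-LX-2 and 41.5 TPM in EV-XP-LX-2, CCN2 at 159 and 220 TPM, and TGFB3 at 2.02 and 1.08 TPM. In LV5-NID1, 1 rose and 2 fell of 15 tested: NFYA, a subunit of the CCAAT-binding factor, at 16.3 TPM in LV5-NID1 and 11.6 TPM in LV5, CCN2 at 22.6 and 40.4 TPM, and CREB3L2 at 25.1 and 34.5 TPM. These lists are described by their counts, beside 43.9% of genes higher and 43.9% lower in SW480-LM3, 17.8% and 24.6% in EV-XP-NID1-LX-2, and 7.27% and 9.32% in LV5-NID1. Without LV5-NID1 replicate 3, every gene of these partner lists called in LV5-NID1 kept its call, and 7 more fell, CSPG4 and HSPG2 among them, beside 8.38% of all genes higher and 13.1% lower.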

How the data were processed

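Poly(A) RNA of 18 cell line libraries was analysed as 3 comparisons of 3 libraries against 3, grouped by their titles. HISAT2 2.1.0 and Bowtie2 2.3.5 are named, without roles, in the submitters' processing notes; no source used here names the counting tool, build or annotation. For SW480-LM3 and SW480-P the authors deposited a normalized signal, the read count divided by 1 factor per library: 100% of values were whole reads within 0.05 read. For the other 4 groups the authors deposited TPM, of unknown depth.

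Each table was tested with limma 3.58.1 (R 4.3.3, variance trend) on log2(value + 1) with a minimum of 1 required in 3 or more libraries and Benjamini-Hochberg adjustment over all tested genes, and called at 0.05. The test was also run on values simulated from each table's means and spreads. These values lacked the GC trends of the libraries, so that run cannot show how such trends affect the calls. GC content and length came from the longest coding GENCODE transcript, promoter windows and gene starts from RefSeq (GRCh38.p14). Members and lists were chosen with earlier results of these data known. The genes named are NID1, chains called or at a mean of 1, up to 3 called genes per partner list with the smallest adjusted p, and the most abundant marker of each list, with other defining markers named after their values were seen. Alternatives covered scaling, pseudocount, filters, a replicate block, left-out libraries, edgeR 4.0.16 and DESeq2 1.42.0 on recovered reads and, added after seeing the data, removal of GC and length trends.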

Additional observations from a re-analysis of the deposited data

How the results depend on the processing

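In SW480-LM3 against SW480-P, 15 of 21 tested chains kept direction and call under every alternative run, in EV-XP-NID1-LX-2 against EV-XP-LX-2 14 of 23, and in LV5-NID1 against LV5 8 of 16. In SW480-LM3 against SW480-P, 12 of the 21 chains passed the filter on low values through 1 group alone. These had to differ to be tested, so where they kept their calls this is no separate support. With a mean of at least 5 over both groups together required, fewer chains were tested, and 5 rose and 6 fell in SW480-LM3. In EV-XP-NID1-LX-2 0 rose, COL11A2 (6.37 TPM in EV-XP-NID1-LX-2 and 2.05 TPM in EV-XP-LX-2) having dropped out. With GC and length trends removed, 5 chains rose and 13 fell in SW480-LM3: COL1A1 (−0.47) and COL27A1 (−0.47) were called lower, and COL17A1 (−0.18) and COL11A2 (−0.076) changed sign. That step, quantile normalization and median-ratio scaling each gave 2 rises in EV-XP-NID1-LX-2, and COL4A6 there turned to 0.13, 0.12 and 0.044. With a log2 change of at least 1 required, 2 chains fell in EV-XP-NID1-LX-2 and 2 in LV5-NID1. Without a filter on low values 5 fell in LV5-NID1.

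Leaving out a library gave 1 to 2 rises and 11 to 15 falls in EV-XP-NID1-LX-2, and 0 to 1 rises and 4 to 9 falls in LV5-NID1. The log2 change then ranged in EV-XP-NID1-LX-2 from −0.21 to 0.0072 for COL11A1, from −0.45 to 0.038 for COL16A1 and from −0.030 to 0.019 for COL4A6, and in LV5-NID1 from −0.37 to 0.27 for COL7A1, which stood at 0.30 with GC and length trends removed. The causes were not tested. Of all called genes, 43.8% were higher in LV5-NID1, and 54.7% under quantile normalization, and 41.9% were higher in EV-XP-NID1-LX-2, and 53.4% with GC and length trends removed. Scaling to library totals shifted the median of all genes to 0.26 in SW480-LM3.

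With the replicate block, 5 chains fell in LV5-NID1, and no call in the other 2 comparisons changed. Same-numbered libraries correlated by −0.0474 to 0.0632 in their deviations from the group means, and 0 of 6 libraries in the SW480-LM3 comparison, 3 of 6 in the LX-2 comparison and 2 of 6 in the LV5 comparison correlated best with their own number, and the numbers were therefore not used as pairs. Counts of 0 to 3 reads limit the fold of the lowest SW480-LM3 chains, and unknown depth limits TPM values under about 1.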
